A study of Mus musculus with 26 samples.

Results

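The mitochondrial genome carries a small set of genes of its own, and RNA from it was counted in ILC2s of the mouse lung in every library of this study. The genes described here are all those whose symbol starts with mt-, 37 of the 55401 genes in each deposited table: 2 ribosomal RNA genes, 22 transfer RNA genes and 13 protein-coding genes. ILC2s, group 2 innate lymphoid cells, reside in tissue, carry no antigen receptor and make type 2 cytokines. They came from unchallenged lungs of female wild-type mice of 8 to 16 weeks. In the first experiment they were sorted without culture from 3 mice of C57BL/6J, the strain of the reference genome, and from 3 of CC030/GeniUnc (CC030), an inbred Collaborative Cross strain whose genome is a mosaic of several founders. The other experiment used cultures from 5 CC030 mice, all of which received the cytokines IL-33 and TSLP, each at 10 ng/mL, together with human IL-2 at 100 U/mL. The cells of each mouse were split between DMSO vehicle and 10 µM AR420626, an agonist of the short-chain fatty acid receptor FFAR3, and were harvested at day 2 and at day 6. That gave 6 groups: naïve C57BL/6J (n = 3), naïve CC030 (n = 3), vehicle day 2, AR420626 day 2, vehicle day 6 and AR420626 day 6 (n = 5 each), in all 26 libraries. All cultured cells were CC030 and all saw the 3 cytokines, so no untreated culture and no C57BL/6J culture was measured here.

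Both strands of the circular mitochondrial DNA are transcribed by a dedicated polymerase into long RNAs that span many genes. Enzymes then cut out the tRNAs that lie between the other genes, which releases the rRNAs and mRNAs, and most of these receive a short poly(A) tail. The 2 rRNAs form the core of the mitochondrial ribosome, the 22 tRNAs decode its messages, and the 13 proteins are subunits of complexes I, III, IV and V of the respiratory chain. The other subunits, the ribosomal proteins and the polymerase are encoded in the nucleus. The libraries were made with the SMART-Seq v4 kit, which primes cDNA from poly(A) tails and does not mark the strand.

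The 37 genes lie on chromosome M of GRCm38, 28 of them on the plus strand of the reference and 9 on the minus strand (mt-Nd6 and 8 tRNA genes). Sequences are shown for tRNAs at both ends of the range of counts, with the anticodon in capitals, and for mt-Atp8, whose last 43 bases (in capitals) are also the first bases of mt-Atp6 in another frame. They are from the GENCODE vM21 transcripts and read 5′ to 3′ along the strand of the gene, in DNA letters. mt-Tq (glutamine, chrM:3772-3842, minus strand) and mt-Tp (proline, chrM:15356-15422, minus strand) held the most tRNA counts in each experiment, summed over its libraries. Together they held 52.5%, 48.3% and 21.2% of the tRNA counts in the naïve C57BL/6J libraries, so this order does not hold in every library. mt-Tm (methionine, chrM:3845-3913, plus strand) and mt-Te (glutamate, chrM:14071-14139, minus strand) were intermediate. mt-Tv (valine, chrM:1025-1093, plus strand), which sits between the rRNA genes, and mt-Tk (lysine, chrM:7700-7764, plus strand), which lies just before mt-Atp8 (chrM:7766-7969, plus strand), were almost uncounted.
mt-Tq: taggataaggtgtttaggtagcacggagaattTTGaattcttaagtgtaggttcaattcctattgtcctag
mt-Tp: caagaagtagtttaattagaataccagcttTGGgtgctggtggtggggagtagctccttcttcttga
mt-Tm: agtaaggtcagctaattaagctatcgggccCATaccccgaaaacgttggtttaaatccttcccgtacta
mt-Te: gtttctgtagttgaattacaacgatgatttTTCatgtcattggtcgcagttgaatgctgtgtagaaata
mt-Tv: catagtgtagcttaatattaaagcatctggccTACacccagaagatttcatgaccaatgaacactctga
mt-Tk: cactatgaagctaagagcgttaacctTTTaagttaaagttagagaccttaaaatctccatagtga
mt-Atp8: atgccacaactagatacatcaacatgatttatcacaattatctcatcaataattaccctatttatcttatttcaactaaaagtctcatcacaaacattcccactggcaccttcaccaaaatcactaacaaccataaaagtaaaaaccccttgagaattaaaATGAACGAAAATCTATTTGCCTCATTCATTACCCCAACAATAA

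The libraries differed widely in depth and in how their counts spread over nuclear genes. In naïve C57BL/6J the total in genes was 13533363 to 15234305 counts, spread over 15946 to 16553 genes. In naïve CC030 it was 1324595 to 1524751 counts over 43527 to 46111 genes, and in culture 227445 (AR420626 day 2, mouse 4) to 5320028 counts. The 10 ILC2 markers summed to 8015 to 10021.5 counts per 1000000 counts in genes (CPM) in naïve C57BL/6J, to 293 to 359 in naïve CC030, and to 85.4 to 457 in culture. Each of the 10 had a count in at least 1 library of every group. CC030 reads went through an mm9-based pseudogenome in the authors' alignment and C57BL/6J reads went to mm10, so alignment, strain and the spread of nuclear counts cannot be told apart between the naïve groups. Markers of other cells had counts in every group, except that S100a8, Mcpt8 and the 3 NK cell markers (Ncr1, Eomes and Gzma) were at 0 in naïve C57BL/6J. The 4 epithelial markers summed to 11359.5 CPM in the third C57BL/6J library against 28.9 and 44.2 in the others. Because every CPM and share below has the counts in genes as its base, levels are compared between groups together with ratios among the mitochondrial RNAs themselves. In bulk RNA a smaller number of cells of a type and less RNA per cell cannot be told apart.

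By class, mitochondrial RNA was mostly mRNA in naïve cells, mostly rRNA at day 2 of culture, and mostly mRNA at day 6. The naïve and the cultured cells come from separate experiments and, per the study's methods, were sorted with different surface markers. Culture and experiment therefore cannot be told apart between them. At day 2 the rRNAs made up 88.7% to 99.8% of mitochondrial counts in vehicle and 97.7% to 98.3% in mice 1 to 3 with AR420626, but 60.7% and 54.6% in mice 4 and 5. In naïve C57BL/6J, mRNAs held 1.57%, 2.29% and 2.84% of the counts in genes and the rRNAs 0.163%, 0.301% and 0.308%. At day 2 in vehicle the order was turned round, with the rRNAs at 13.8%, 56.4%, 21.0%, 37.1% and 55.6% in mice 1 to 5 and the mRNAs at 1.73%, 0.151%, 0.167%, 0.287% and 0.121%. Only 2.92%, 4.56%, 2.79%, 3.55% and 11.1% of all pairs of the table fell in genes in these libraries. On that wider base the rRNAs held 0.402%, 2.57%, 0.586%, 1.31% and 6.18%. The tRNAs were the smallest class in 26 of 26 libraries, with at most 0.335% of counts in genes.

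**Figure D1:**
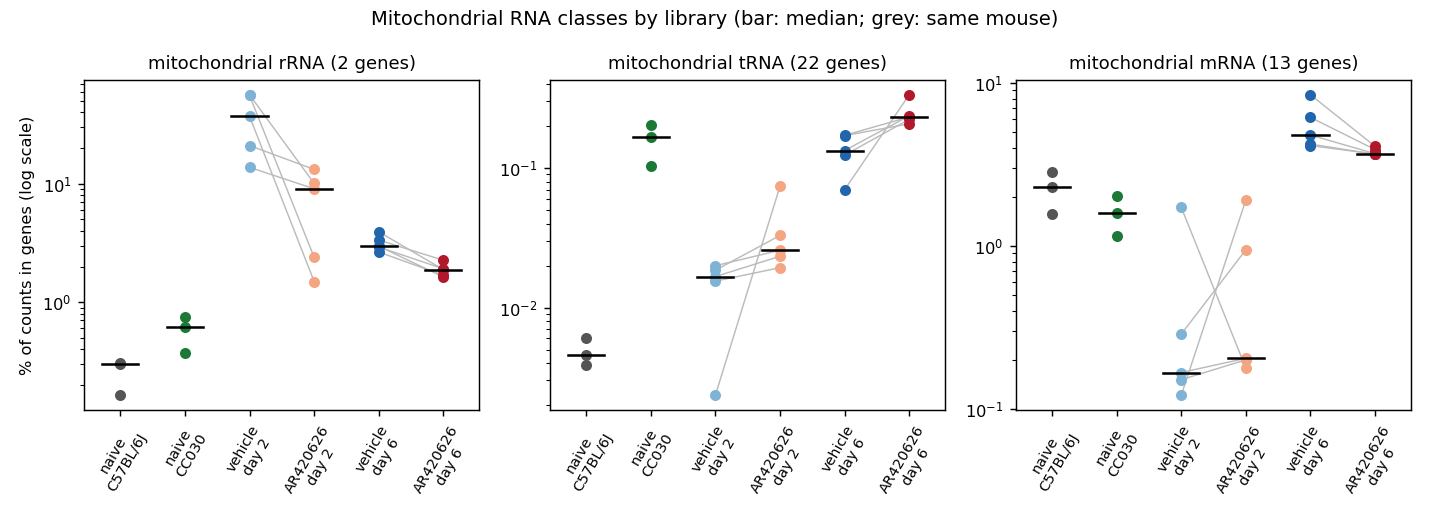
Share of counts in genes taken by mitochondrial rRNA, tRNA and mRNA (percent, log axis) in each of the 26 libraries, with the median of each group as a bar and libraries of the same mouse and day joined in grey. The rRNA share was highest at day 2 in vehicle (13.8% to 56.4%), and the mRNA share was highest at day 6 in vehicle (4.12% to 8.44%).

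In counts of rRNA per count of mRNA, which has no base in nuclear genes, naïve C57BL/6J gave 0.115 ± 0.0147 (SD, n = 3) and naïve CC030 0.360 ± 0.0348 (n = 3). The ratio was 219 ± 189 at day 2 in vehicle (n = 5, from 7.97 to 459) and 33.7 ± 30.0 with AR420626 (n = 5, from 1.25 to 64.6). It was 0.608 ± 0.171 at day 6 in vehicle and 0.495 ± 0.0534 with AR420626 (n = 5 each). The day 2 libraries held more rRNA counts than mRNA counts in 10 of 10 cases, and the naïve and day 6 libraries held fewer in 16 of 16.

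Within the mRNAs, counts were very unevenly spread. Per kb of gene, mt-Cytb (cytochrome b of complex III) had the highest median in 5 of the 6 groups, with 7835 CPM per kb in naïve C57BL/6J and 13134.5 in vehicle at day 6, and mt-Nd1 (complex I) was next in all 6. mt-Nd6, the complex I subunit encoded on the minus strand, was first in naïve CC030 (2833 CPM per kb). At the other end, medians in naïve C57BL/6J were 11.8 CPM per kb for mt-Co2 and 24.5 for mt-Co3 (complex IV), 22.2 for mt-Atp6 and 1.70 for mt-Atp8 (complex V), and 26.1 for mt-Nd3 and 0.221 for mt-Nd4l (complex I). Most of the scarce members have close copies in annotated nuclear transcripts. Of all 150-bp windows of the gene, 99.4% of those in mt-Co2, 99.4% in mt-Atp6, 99.8% in mt-Co3, 97.0% in mt-Nd3 and 98.0% in mt-Nd4l occurred unchanged in nuclear pseudogene transcripts (Gm28661 and Gm13341, Gm10925, Gm28437, Gm28438 and Gm10222). The share was 59.2% in mt-Nd4, 23.6% in mt-Co1 and 0% in mt-Nd1, mt-Nd2, mt-Nd5, mt-Nd6, mt-Cytb, mt-Atp8 and both rRNAs. Gm10925 held 159 to 429 counts per C57BL/6J library, and since reads of these members and of their copies cannot be told apart, their levels are uncertain. mt-Atp8 overlaps mt-Atp6 and mt-Nd4l overlaps mt-Nd4, and how such reads were counted is not given in the sources.

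**Figure D2:**
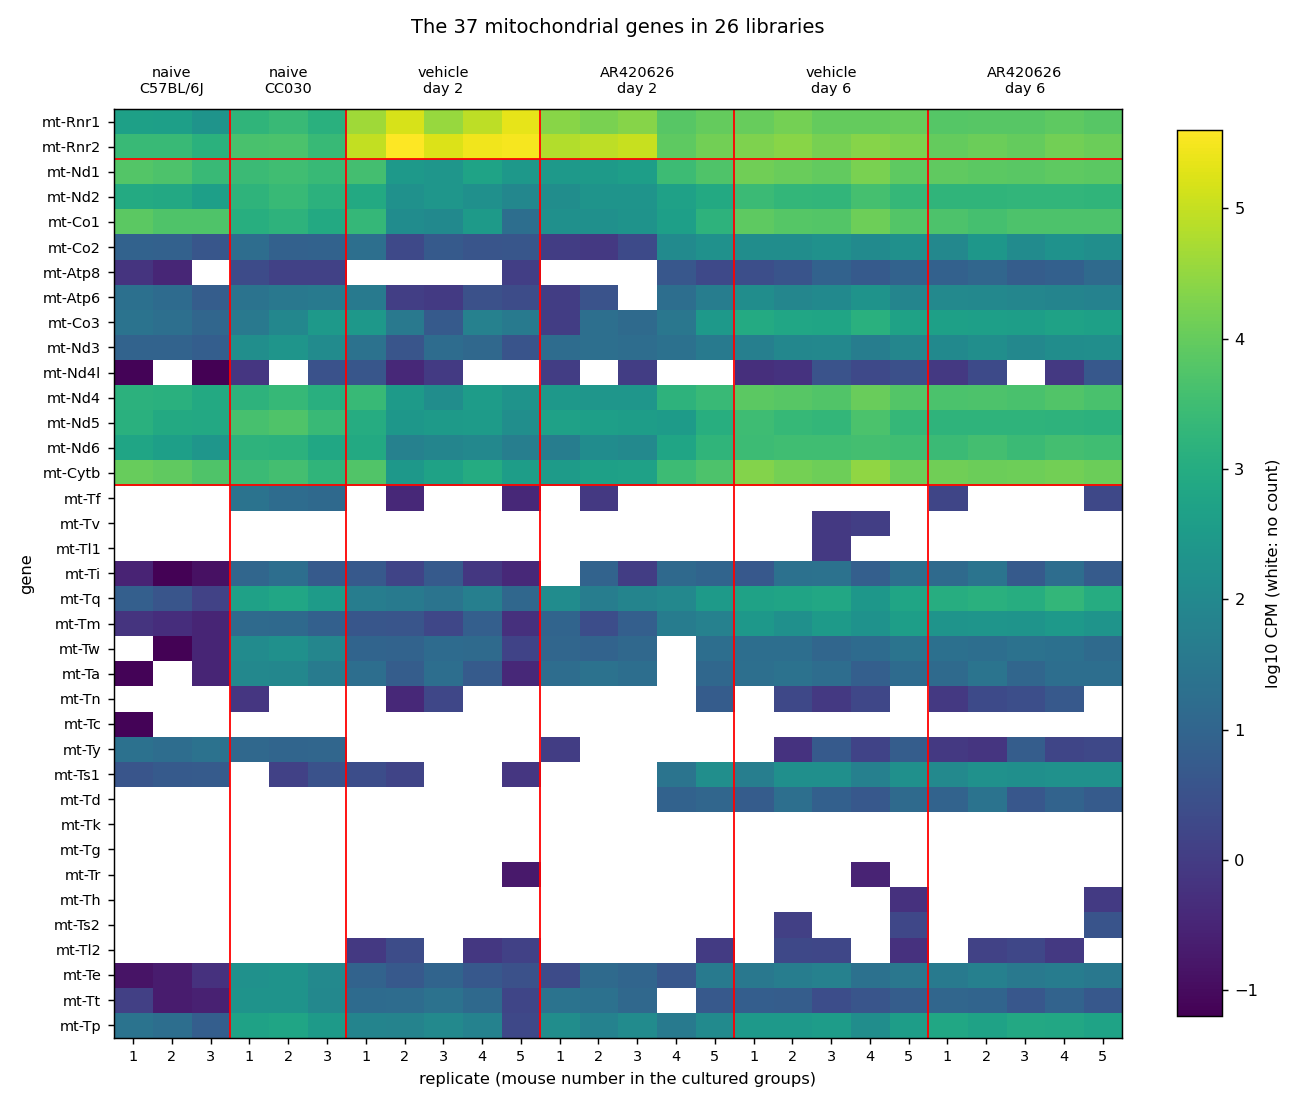
Level of each of the 37 mitochondrial genes (rows: rRNA, mRNA, then tRNA, in genome order within a class) in each of the 26 libraries (columns), as log10 CPM, white where no count was present. The rRNA rows are brightest at day 2, and 2 tRNA rows (mt-Tk and mt-Tg) are white in every library.

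The tRNA counts were concentrated in a few genes. mt-Tk and mt-Tg (lysine and glycine) had no count in any of the 26 libraries, which allows a level of up to 0.197 to 13.2 CPM per library (3 counts, for counting error only). The 8 tRNA genes with a gene of the same strand within 10 bp on both sides (mt-Tv, mt-Tl1, mt-Tk, mt-Tg, mt-Tr, mt-Th, mt-Ts2 and mt-Tl2) reached at most 7 counts in any library, with 0 of 8852 tRNA counts in naïve cells, which allows a share of up to 0.0339%, and 46 of 29308 in culture. The 3 with no such neighbour (mt-Tq, mt-Ts1 and mt-Tp) held 61.4% of the tRNA counts in naïve cells and 78.5% in culture. The 8 minus-strand tRNA genes held 83.5% and 82.5%. These naïve values pool both strains, and by library the minus-strand share was 96.3% to 98.2% in C57BL/6J and 78.1% to 80.1% in CC030. Since the strand was not marked, reads of a minus-strand gene and antisense reads from the plus-strand RNA across it cannot be told apart, and the same holds for mt-Nd6.

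The first comparison asked how naïve CC030 ILC2s differ from naïve C57BL/6J ILC2s. Mitochondrial tRNAs were far higher in CC030 relative to mitochondrial mRNA, rRNA was higher, and within the mRNAs mt-Co1, mt-Cytb and mt-Nd1 took a smaller share. The tRNAs held 97.8 ± 8.07 counts per 1000 mRNA counts in CC030 and 2.18 ± 0.232 in C57BL/6J (SD, n = 3 each), 44.8 times as many, and the groups did not overlap. The 3 classes together held 2.32% ± 0.676 of counts in CC030 and 2.49% ± 0.709 in C57BL/6J, with overlapping libraries. Their tRNA share was 0.166%, 0.202% and 0.103% against 0.00600%, 0.00456% and 0.00385%.

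Of the 37 members, 24 passed the filter on low counts, and 10 of these rose and 5 fell in CC030 (edgeR quasi-likelihood test, Benjamini-Hochberg adjusted p at most 0.05). Of all 35551 genes tested, 76.3% were called, 64.1% as higher and 12.2% as lower, and the median log2 fold change was 7.03 over all genes and 0.96 over the members, also with mt-Tf at its bound. A called difference was thus common across the table, and its size depended on the scaling. With total counts in genes as the only scaling the median over all genes moved to 8.08, and 15 members were called higher and 2 lower. Of all 35551 genes, 24920 were called higher and 2867 lower at that setting. With at least 10 counts required in every library the median over all genes was 0.02, and 6 of 16 members were called higher and 2 lower. Of the 7223 genes tested there, 1635 were called higher and 1938 lower.

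All 11 tRNAs tested were called, 9 as higher, where 76.3% of all genes were called and 64.1% called higher. The median log2 fold change of these tRNAs was 5.68, below the 7.03 over all genes. mt-Tq stood at 7.09, 3.95 and 1.38 CPM in C57BL/6J and at 506, 675 and 350.2 CPM in CC030, and mt-Tp at 24.4, 18.1 and 6.76 against 513, 639 and 318. Every CC030 library was above every C57BL/6J library for both, with log2 fold changes of 5.68 (SE 0.765, adjusted p = 0.00046) and 3.64 (SE 0.634, adjusted p = 0.00097). mt-Tf (phenylalanine) had no count in C57BL/6J and 32, 24 and 20 counts in CC030, at least 85.0-fold higher against a floor of 3 counts per library. mt-Tw (tryptophan) had 0, 1 and 5 counts in C57BL/6J and 160, 250 and 124 in CC030 (log2 fold change 8.56, SE 1.03), and mt-Ta (alanine) had 1, 0 and 5 against 122, 137 and 63 (7.85, SE 1.16). mt-Ts1 and mt-Ty (serine and tyrosine) went the other way. mt-Ts1 had 52, 78 and 86 counts in C57BL/6J and 0, 2 and 5 in CC030, a log2 fold change of -2.82 (SE 0.885, adjusted p = 0.019), and mt-Ty changed by -2.03 (adjusted p = 0.011). Neither call held with total counts as the only scaling, and the call of mt-Ty was lost without CC030 library 1 or 3 and that of mt-Ts1 without CC030 library 2.

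Among the 11 mRNAs tested, mt-Co1, the catalytic subunit of cytochrome c oxidase, fell most. It stood at 7509, 5469 and 5341 CPM in C57BL/6J and at 1177, 1579 and 854 CPM in CC030, with no overlap and a log2 fold change of -3.55 (SE 0.444, adjusted p = 0.00046). mt-Cytb stood at 10457, 8963 and 5403 CPM against 2747, 3732 and 1781, again without overlap (log2 fold change -2.82, SE 0.506, adjusted p = 0.0011). Both passed as lower under each of the 14 alternatives run for this comparison. mt-Nd1 stood at 6007, 4941 and 2618 CPM against 2677, 3199 and 2362, so that the groups overlapped, and its call (-1.96, adjusted p = 0.0052) was lost without the first C57BL/6J library, with total counts as the only scaling and with at least 10 counts in every library. mt-Nd3 rose, from 9.09, 9.16 and 6.89 CPM to 140.4, 224 and 123 CPM (3.06, SE 0.471, adjusted p = 0.00058). Its level is uncertain, since 97.0% of its windows occur in the nuclear copy Gm28438, which had 4 to 17 counts in C57BL/6J and 1 to 7 in CC030. What part the copy and the different alignments have in this rise was not tested. mt-Nd6 stood at 629, 437 and 236 CPM against 1604, 1471 and 715, a difference that did not pass the test (log2 fold change 0.30, adjusted p = 0.63). As shares of mRNA counts, mt-Nd1, mt-Co1 and mt-Cytb together made up 84.7% ± 0.170 in C57BL/6J and 42.3% ± 0.928 in CC030, mt-Co1 alone 28.1% ± 5.21 and 7.54% ± 0.202, and mt-Nd6 1.87% ± 0.362 and 7.86% ± 2.03 (SD, n = 3 each), none of them overlapping.

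Neither rRNA passed the edgeR test between the strains. mt-Rnr1, the small subunit rRNA, stood at 453, 442 and 205 CPM in C57BL/6J and at 1754, 2574 and 1309.7 CPM in CC030 without overlap (log2 fold change 1.11, adjusted p = 0.071). It was called higher under 6 of the 14 alternatives, DESeq2 and total counts as the only scaling among them, and its log2 fold change was 0.37 without the third C57BL/6J library. mt-Rnr2, the large subunit rRNA, stood at 2626, 2564 and 1429 CPM against 4459, 4847 and 2414 (-0.41, adjusted p = 0.44), and the sign of its fold change turned with the scaling. The count of mt-Rnr2 per count of mt-Rnr1 was 6.19 ± 0.671 in C57BL/6J and 2.09 ± 0.392 in CC030. Without the third C57BL/6J library, the one with the epithelial markers, 16 members were called and mt-Rnr2 (-1.11) was among those that fell. Over all genes, 24411 of 29973 were called in that case. Exact permutation tests of 3 against 3 libraries on CPM, which cannot go below p = 0.1, gave that value for mt-Rnr1, mt-Co1 and mt-Cytb and 0.3 for mt-Rnr2 and mt-Nd1 (p = 0.139 and 0.341 after adjustment over 25 such tests).

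Nuclear genes for mitochondria were mostly called lower in CC030. Of 77 mitochondrial ribosomal protein genes tested, 73 fell and none rose, and of 98 nuclear respiratory chain genes 85 fell and 5 rose, with median log2 fold changes of -3.89 and -5.48. Of all 35551 genes tested, 12.2% were called lower and 64.1% higher. Cox4i1, a nuclear subunit of the oxidase that contains mt-Co1, changed by -7.51 and Uqcrfs1, a partner of cytochrome b, by -6.00. Of 32 genes for mitochondrial RNA processing 13 fell and 3 rose, of 21 for transcription and replication 8 fell and 1 rose, and of 22 tRNA synthetases 3 fell and 2 rose. The ILC2 markers were lower in CC030 as well, as given above, and what part the alignment has in these counts was not tested.

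The comparison of days asked how the cultured cells differed between day 2 and day 6 within the same mice. In vehicle the mitochondrial mRNAs rose together, while the rRNAs became a smaller part of the counts. mRNAs held 6.13%, 4.78%, 4.20%, 8.44% and 4.12% of counts at day 6 in mice 1 to 5, each above the same mouse at day 2, by 5.04 percentage points on average (SD 1.76, n = 5 pairs). The rRNAs held 2.97%, 3.93%, 2.65%, 3.34% and 2.92%, each below the same mouse at day 2. The tRNAs held between 0.00235% and 0.0199% at day 2 and between 0.0699% and 0.171% at day 6, and were higher in 5 of 5 mice.

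Of the 21 members tested in vehicle, 18 rose by day 6 and none fell, against 17.3% of 15819 genes called (13.6% higher and 3.73% lower). The median log2 fold change was 4.85 over the members and -0.33 over all genes. With total counts as the only scaling the second value moved to -1.28. All 11 mRNAs tested were among those that rose, by 3.75 to 6.35 on the log2 scale, and so were 7 of 8 tRNAs. mt-Co1 stood at 2156, 129.9, 104, 311 and 18.4 CPM at day 2 and at 8157, 6465, 5938, 12616 and 5958 CPM at day 6 (6.35, SE 1.46, adjusted p = 0.0065). mt-Cytb stood at 5819.7, 266, 519.7, 963 and 395 CPM at day 2 and at 21838, 15026, 12925, 29167 and 12508 CPM at day 6 (5.31, SE 1.49, adjusted p = 0.020). The 2 days did not overlap for either gene, and the first mouse was far above the other 4 at day 2 in both.

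The largest changes were in 2 tRNAs. mt-Ts1 had 3, 4, 0, 0 and 4 counts at day 2 and 94, 241, 175, 201 and 269 at day 6 (log2 fold change 7.40, SE 0.989, adjusted p = 0.00026), and mt-Tm stood at 0.564 to 7.07 CPM and then at 159.6 to 406 CPM (7.35, SE 1.03, adjusted p = 0.00028). mt-Tq rose from 48.6, 40.2, 26.3, 53.4 and 11.5 CPM to 517, 594, 757, 253 and 634 CPM (4.85, adjusted p = 0.0029), and mt-Tp from 72.0, 67.9, 99.2, 66.8 and 1.88 CPM to 307, 289, 354, 134 and 383 CPM (3.67, adjusted p = 0.010). The smallest called changes were those of mt-Tw (1.95), mt-Ta (2.24) and mt-Te (3.48). mt-Tt (threonine) changed by -0.20 (adjusted p = 0.82). mt-Nd6 rose from 862, 60.9, 77.2, 94.3 and 49.8 CPM to 2842, 3286, 3174, 3802 and 3361 CPM (5.72, SE 1.34, adjusted p = 0.0072), and mt-Nd1 from 3757, 278, 241, 551 and 267 CPM to 13755, 10971, 9373, 17138 and 8318 CPM (5.33, adjusted p = 0.017).

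The rRNAs were lower at day 6 in 5 of 5 mice without passing the test. mt-Rnr1 stood at 43453, 151982, 36312, 81857 and 229567 CPM at day 2 and at 10355, 14892, 10137, 9822 and 10541 CPM at day 6 (log2 fold change -1.86, SE 1.58, adjusted p = 0.42). mt-Rnr2 stood at 94068, 411994, 173874, 288804 and 326563 CPM and then at 19322, 24366, 16370.4, 23615 and 18657 CPM (-2.57, SE 1.61, adjusted p = 0.28). The days did not overlap for either gene, the spread among mice at day 2 was wide, and DESeq2 called both lower. The count of members called was 11 without mouse 2, 9 without mouse 4 and 17 without both mice 4 and 5. In the same order, 1512 of 14149, 994 of 16124 and 4337 of 18228 genes were called over the whole table. Without mouse 4 the members still called were 3 mRNAs and 6 tRNAs. Among those that no longer passed were mt-Co1, mt-Nd1, mt-Nd6, mt-Cytb and mt-Tp. Exact sign-flip permutation tests of the 5 paired log2 differences gave the smallest p that 5 pairs allow, which is above 0.05 (p = 0.104 after adjustment over 25 tests), for each of mt-Rnr1, mt-Rnr2, mt-Co1, mt-Nd1 and mt-Cytb.

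With AR420626 the same divide between the days was less even, since the day 2 libraries of mice 4 and 5 stood apart from the other 3. At day 2, mRNAs held 0.178%, 0.200%, 0.204%, 0.945% and 1.91% of counts in mice 1 to 5 and the rRNAs 9.06%, 10.0%, 13.2%, 1.49% and 2.39%. The libraries of mice 4 and 5 also had counts at 19356 and 27775 genes, against 42723 to 44975 in the day 2 libraries other than these and that of mouse 5 in vehicle (32347). At day 6 the mRNAs held 3.89%, 3.67%, 3.64%, 4.07% and 3.65%, above day 2 in 5 of 5 mice, and the rRNAs 1.63%, 1.88%, 1.69%, 2.26% and 1.91%, below day 2 in 4 of 5.

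Of 22 members tested with AR420626, 10 rose from day 2 to day 6 and none fell, against 11.2% of 14731 genes called (10% higher and 1.14% lower), with a median log2 fold change of 4.17 over the members and -0.26 over all genes. They were 5 mRNAs (mt-Co1, mt-Co2, mt-Co3, mt-Atp6 and mt-Nd3) and 5 tRNAs (mt-Tq, mt-Tm, mt-Ts1, mt-Te and mt-Tp). All 5 of these mRNAs share windows with nuclear copies, mt-Co1 in 23.6% and the rest in 97.0% to 99.8%, so the limit given above applies. The tested mRNAs with no such windows (mt-Nd1, mt-Nd2, mt-Nd5, mt-Nd6 and mt-Cytb) rose by 2.83 to 5.03 without passing. mt-Nd4, with 59.2%, did not pass either. mt-Co3, a core subunit of the oxidase, stood at 1.12, 18.8, 13.7, 30.8 and 308 CPM at day 2 and at 452, 446, 408, 512 and 465 CPM at day 6 (5.57, SE 1.31, adjusted p = 0.017). mt-Co1 stood at 163, 166, 195, 422 and 1612 CPM and then at 5171, 4025, 5150.2, 4924 and 5086 CPM (5.13, SE 1.58, adjusted p = 0.0495). mt-Ts1 had 0, 0, 0, 6 and 147 counts and then 121, 243, 172, 205 and 186 counts (6.12, SE 1.43, adjusted p = 0.016), so that mouse 5 at day 2 lay within the range of day 6. mt-Cytb stood at 336, 463, 492, 2981 and 5057 CPM at day 2 and at 13414, 11597, 12455, 14029 and 11930.5 CPM at day 6 without overlap, yet did not pass (4.84, SE 1.89, adjusted p = 0.11), and mt-Nd1 likewise (4.40, adjusted p = 0.13). mt-Rnr1 changed by 0.03 and mt-Rnr2 by -0.67 (adjusted p = 0.99 and 0.86). The count of members called depended on single mice, with 3 without mouse 1, 2 without mouse 2, 3 without mouse 3, 6 without mouse 4, 19 without mouse 5 and 18 without both mice 4 and 5. DESeq2 called 18.

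**Figure D3:**
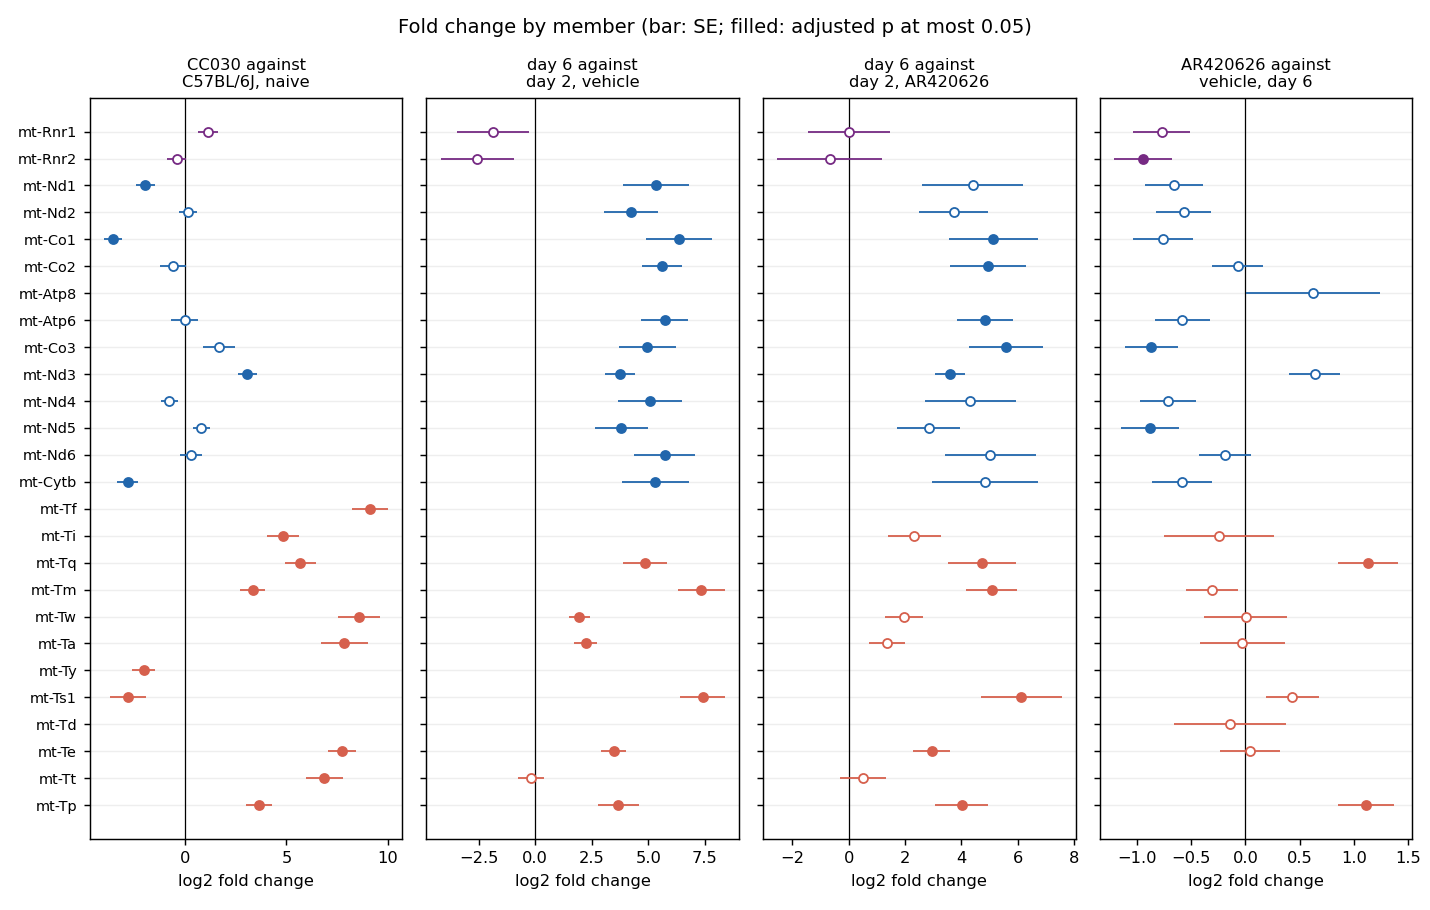
Log2 fold change of each tested mitochondrial gene (edgeR, bars are SE) in 4 comparisons, each panel with its own axis, with filled points where the adjusted p was at most 0.05 and colours for rRNA (purple), mRNA (blue) and tRNA (red). In vehicle all 11 tested mRNAs rose from day 2 to day 6, while with AR420626 against vehicle at day 6 the 2 filled points above 0 are mt-Tq and mt-Tp.

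Of the nuclear lists, 10 of 35 respiratory chain genes tested and 11 of 46 mitochondrial ribosomal protein genes rose from day 2 to day 6 in vehicle, where 13.6% of all genes were called higher, and 2 of the latter fell. Of the genes for transcription and replication of mitochondrial DNA, 3 of 16 rose, with Mterf1b, a transcription termination factor, at 3.98 (adjusted p = 0.0018). Of those for RNA processing 4 of 25 rose, among them Trmt10c, a subunit of the enzyme that cuts tRNA 5′ ends (3.66, adjusted p = 0.011), and of the tRNA synthetases 2 of 17 rose. With AR420626 the counts that rose were 4 of 29, 3 of 43, 2 of 17, 2 of 21 and 2 of 17 in the same order of lists, near the 10% of all genes called higher. The median log2 fold changes of these lists lay between -0.61 and 0.58 in the 2 comparisons, far below those of the members.

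The effect of AR420626 was tested at each day within mice. At day 2 the rRNAs took a smaller share of counts with AR420626 in 5 of 5 mice, by 29.5 percentage points on average (SD 22.2), and the groups did not overlap. The tRNA share was higher in 5 of 5 mice and the mRNA share in 4 of 5, by 0.0205 (SD 0.0289) and 0.197 (SD 1.21) percentage points. Relative to counts in nuclear protein-coding genes each was higher in 3 of 5 mice. Without mouse 5 the tRNA difference was 0.00767 and the mRNA difference was -0.201, and without mouse 1 the mRNA difference was 0.633. mt-Rnr1 stood at 24693, 17218, 22705, 6740.1 and 10109 CPM with AR420626, each below all 5 vehicle libraries given above, and mt-Rnr2 at 65935, 83273, 109246, 8191 and 13779 CPM, where mouse 3 lay within the range of vehicle. Their log2 fold changes of -3.47 (SE 2.60) and -3.56 (SE 2.85) did not pass the test (adjusted p = 1.0 for both). No member of 17 tested was called by edgeR, none had an unadjusted p below 0.05, and 0% of 20865 genes were called. DESeq2 called 1 member, mt-Rnr1, as lower. Without mice 4 and 5 edgeR called none as well, and 1 member had an unadjusted p below 0.05.

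At day 6, AR420626 was accompanied by fewer mitochondrial rRNA and mRNA counts and by more mt-Tq and mt-Tp. The rRNA share was lower in 5 of 5 mice, by 1.29 percentage points on average (SD 0.446), the mRNA share was lower in 5 of 5, by 1.75 (SD 1.62), and the tRNA share was higher in 5 of 5, by 0.113 (SD 0.0893). None of the 3 classes overlapped between the groups. Without mouse 4 the mRNA difference was -1.09 and the tRNA difference 0.0751. The tRNAs held 64.9 ± 10.3 counts per 1000 mRNA counts with AR420626 and 27.7 ± 14.1 in vehicle (SD, n = 5 each, higher in 5 of 5 mice).

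Of 23 members tested at day 6, 2 rose and 3 fell, against 11.4% of 9421 genes called (3.3% higher and 8.14% lower), and the median log2 fold change was -0.24 over the members and 0.10 over all genes. mt-Tq stood at 517, 594, 757, 253 and 634 CPM in vehicle and at 1097, 1277, 1091, 2006 and 1048 CPM with AR420626. Every mouse rose and the groups did not overlap, with a log2 fold change of 1.13 (SE 0.280, adjusted p = 0.0066). mt-Tp stood at 307, 289, 354, 134 and 383 CPM and at 707, 527, 779, 758 and 557 CPM, again without overlap (1.11, SE 0.261, adjusted p = 0.0043). Both are on the minus strand. The other minus-strand members tested did not pass, with mt-Ts1 at 0.43 (adjusted p = 0.27), mt-Te at 0.04 (0.94), mt-Ta at -0.03 (0.97) and mt-Nd6 at -0.19 (0.64). mt-Nd6 stood at 2729.8, 3653, 2732, 3617 and 3194 CPM with AR420626, lower than in vehicle in 4 of 5 mice, and the groups overlapped. mt-Tq and mt-Tp together made up 79.5% ± 2.61 of tRNA counts with AR420626 and 62.5% ± 4.91 in vehicle.

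**Figure D4:**
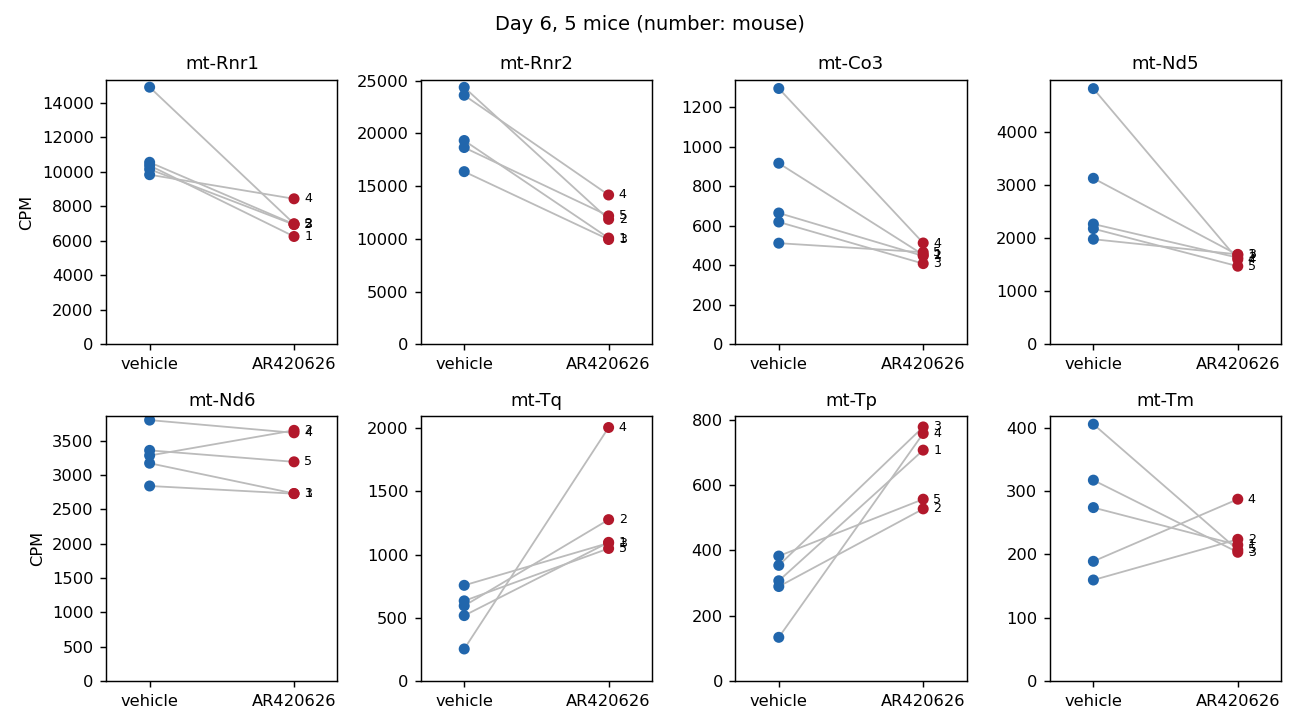
CPM of 8 mitochondrial genes at day 6 in vehicle (blue) and AR420626 (red), with the libraries of each of the 5 mice joined and numbered, and axes that start at 0. mt-Tq and mt-Tp were higher with AR420626 in 5 of 5 mice, mt-Rnr1, mt-Rnr2, mt-Co3 and mt-Nd5 were lower in 5 of 5, and mt-Nd6 was lower in 4 of 5.

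The members that fell at day 6 were mt-Rnr2, mt-Co3 and mt-Nd5. mt-Rnr2 stood at 19322, 24366, 16370.4, 23615 and 18657 CPM in vehicle and at 10070.0, 11847, 9932, 14156 and 12174 CPM with AR420626 (log2 fold change -0.95, SE 0.266, adjusted p = 0.017). The groups did not overlap. mt-Co3 stood at 916, 664, 618, 1294 and 511 CPM and at 452, 446, 408, 512 and 465 CPM, where mouse 4 with AR420626 reached mouse 5 in vehicle (-0.87, SE 0.246, adjusted p = 0.018). mt-Nd5, a membrane subunit of complex I, stood at 3123, 2263, 1977, 4812 and 2175 CPM and at 1682, 1629, 1691, 1595 and 1468 CPM (-0.88, SE 0.268, adjusted p = 0.029), without overlap. mt-Rnr1 was lower in 5 of 5 mice without passing (-0.77, adjusted p = 0.054), although it was called lower under 8 of the 14 alternatives. Also lower in 5 of 5 mice without passing were mt-Co1 (-0.76, adjusted p = 0.070), mt-Nd1 (-0.66, adjusted p = 0.11) and mt-Cytb (-0.59, adjusted p = 0.18), each with the smallest p that the exact sign-flip test of 5 pairs allows (p = 0.104 after adjustment over 25 tests).

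These calls leaned on single mice. Without mouse 1 or without mouse 4, 2 members were called, mt-Tq and mt-Tp, and the adjusted p of mt-Rnr2, mt-Co3 and mt-Nd5 was 0.11, 0.13 and 0.14 in the first case and 0.068, 0.13 and 0.21 in the second. Over all genes, 604 of 9883 and 720 of 10357 were called in these cases. Without mouse 5 the 3 called were mt-Tq, mt-Tp and mt-Co3, without mouse 3 there were 8, and without mice 4 and 5 edgeR called none and 4 had an unadjusted p below 0.05, with adjusted p = 0.18 for mt-Tq and 0.085 for mt-Tp and log2 fold changes of 0.87 and 1.03. With no filter on low counts mt-Tq and mt-Tp were not called. Without mouse 4, which had the lowest mt-Tq and mt-Tp in vehicle, mt-Tq changed by 0.80 (adjusted p = 0.049) and mt-Tp by 0.87 (adjusted p = 0.031). The vehicle libraries of day 6 also enter the comparison of days in vehicle, so both sets of values share these libraries.

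Among nuclear genes at day 6, none of 17 respiratory chain genes tested was called by edgeR, and 2 had an unadjusted p below 0.05 (Ndufv1 of complex I and Sdha of complex II). Of 28 mitochondrial ribosomal protein genes 2 fell (Mrpl40 by 1.14 and Mrpl11 by 0.84 on the log2 scale), and of 10 genes for transcription and replication 2 fell (Dguok and Mterf1b). Trmt10c fell by 0.98 (adjusted p = 0.019) and Nsun4, an rRNA methyltransferase of mitochondria, rose by 0.92 (adjusted p = 0.035) among 16 genes for RNA processing. Tars2, the mitochondrial threonine synthetase, rose by 1.85 (adjusted p = 1.96e-06), 1 of 12 synthetases tested. Of all 9421 genes tested at day 6, 8.14% were called lower and 3.3% higher, so counts this small in short lists do not set the lists apart. The T cell markers summed to 2.34 to 9.31 CPM in vehicle and to 9.19 to 18.3 CPM with AR420626 at day 6, and the ILC2 markers to 85.4 to 147 and to 90.2 to 138. No T cell marker had over 16 counts in any of these libraries. The groups overlapped for both sums, and also for those of the epithelial, B cell, macrophage and neutrophil, mast cell and basophil, and NK cell markers. What part other cells have in the mitochondrial counts was not tested.

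Whether the effect of AR420626 differed between day 6 and day 2 was tested as an interaction over all 20 cultured libraries. None of 23 members was called by edgeR, 2 had an unadjusted p below 0.05 (mt-Td and mt-Tm), and DESeq2 called none, against 0.0519% of 23141 genes called (0.0389% higher and 0.013% lower). For mt-Tq the difference of the effects was -0.05 (SE 1.11) and for mt-Rnr2 2.23 (SE 2.22) on the log2 scale. With these errors, a difference between the days as large as the effects themselves was not detectable.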

How the data were processed

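The authors trimmed the reads with fastp, checked them with FastQC, aligned them with STAR (C57BL/6J to mm10, CC030 to an mm9 reference pseudogenome whose alignments were moved to mm10 coordinates) and counted them with HTSeq. The annotation and the HTSeq strand setting are not given in the sources used here. The deposited tables hold raw counts for 55401 genes in 26 libraries, of which 55141 had a symbol in GENCODE vM21, and 5 HTSeq summary rows of the cultured table were left out. Per cultured library, 2.06% to 11.1% of the table with these rows fell in genes and 74.5% to 85.3% in no annotated feature. Depth was 227445 to 15234305 counts in genes per library.

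CPM and shares were computed here per counts in genes. The members and gene lists were chosen with earlier results of these data known. Genes were tested with edgeR 4.0.16 (quasi-likelihood, robust, TMM, filterByExpr with minimum counts of 10 and 15, Benjamini-Hochberg over all genes, threshold 0.05) in R 4.3.3, on the 6 naïve libraries without a block and on the cultured libraries with the mouse as a block. The treatment tests used 10 libraries each, the tests of days 10 each, and the interaction all 20. DESeq2 1.42.0 and other scalings and filters were alternatives. The fits were tested on simulated counts. The pairing comes from the labels, which give the same mouse number for libraries of the same mouse. The correlation over genes of deviations from the group means ran from -0.295 to 0.342 between libraries of the same mouse. Of the 5 mice, the own number gave the best match in 1 between treatments at day 2 and in 1 at day 6. Between days it did so in 1 in vehicle and in 2 with AR420626. A random order would give a match in 1 of 5 on average, so the counts do not clearly show the pairing. Named genes were the markers mt-Rnr1, mt-Rnr2, mt-Co1, mt-Nd1 and mt-Cytb, mt-Nd6, the tRNAs with the most counts summed over each experiment (mt-Tq and mt-Tp), and the called members with the largest and smallest changes, with up to 3 genes per nuclear list. Other members were named after their values were seen. The naïve libraries of a strain came from separate mice, per the study's methods. Python 3.11.15 was used for summaries and figures.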

Additional observations from a re-analysis of the deposited data

Results flagged for a closer look

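In 13 of 48 sets of 5 cultured libraries examined (the shares of the classes and the CPM of the named genes), 1 library stood far from the other 4. Chance flags about 1 in 20 such groups, and the sets share libraries. At day 2 in vehicle, mouse 1 was high in mRNA share (1.73% against 0.121% to 0.287% in the other 4), in mt-Co1 (2156 CPM against 18.4 to 311), in mt-Nd1 (3757 CPM against 241 to 551), in mt-Cytb (5819.7 CPM against 266 to 963) and in mt-Nd6 (862 CPM against 49.8 to 94.3). Mouse 5 of the same group was low in tRNA share (0.00235% against 0.0154% to 0.0199%). At day 2 with AR420626, mouse 5 was high in tRNA share (0.0740% against 0.0193% to 0.0329%) and in mt-Co1 (1612 CPM against 163 to 422). At day 6 in vehicle, mouse 2 was high in mt-Rnr1 (14892 CPM against 9822 to 10541). At day 6 with AR420626, mouse 4 was high in tRNA share (0.335% against 0.207% to 0.237%), in the share of all mitochondrial RNA (6.67% against 5.56% to 5.79%) and in mt-Tq (2006 CPM against 1048 to 1277), and mouse 2 was low in mt-Co1 (4025 CPM against 4924 to 5171). The vehicle library of mouse 1 at day 2 enters the comparisons of days and of treatments, and the causes of these values were not tested.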

How the results depend on the processing

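The number of members called between the strains was 13 to 16 when single libraries were left out, 13 with a replicate block (strain libraries share only a number, and 1 of 3 correlated best with its own) and 8 with at least 10 counts in every library, where fewer members were tested. Over all genes, 26602 of 35551 were called with the block and 3573 of 7223 with at least 10 counts. For AR420626 at day 2 the number of members called was 0 throughout, except 1 with DESeq2, which called 15 of 9134 genes. At day 6 the number was 2 to 8 without single mice, 9 with DESeq2, 3 with no filter and 0 without mice 4 and 5. Over all genes, 1221 of 11070 were called without mouse 3, 1249 of 7959 with DESeq2 and 773 of 48416 with no filter. Without mice 4 and 5, 361 of 10900 genes were called. Between the days the number of members called was 9 to 18 in vehicle without single mice, and with AR420626 2 to 19 without single mice and 18 with DESeq2 or without mice 4 and 5. Without single mice, 994 of 16124 to 5376 of 18253 genes were called in vehicle and 253 of 14918 to 2772 of 17441 with AR420626. With AR420626, DESeq2 called 2806 of 14731 genes, and 3458 of 20989 were called without mice 4 and 5. The replicate block changed no other count of members by over 1.5 times.

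With counts in nuclear protein-coding genes as the base, the strain differences were 0.473 (rRNA) and 0.203 (tRNA) points per 100. The treatment differences were -91.8 for rRNA and -91.7 for all classes at day 2, and -1.92 for rRNA at day 6. The differences of days were -97.7 for rRNA, 7.19 for mRNA and -90.4 for all classes in vehicle, and 0.303 for tRNA and 4.46 for mRNA with AR420626. With all pairs of the table as the base they were -2.03 (rRNA) and -2.02 (all) for treatment at day 2, -0.0878 (rRNA), 0.00553 (tRNA) and -0.219 (all) at day 6, -2.02 (rRNA), 0.00718 (tRNA), 0.322 (mRNA) and -1.69 (all) between days in vehicle, and -0.0852 (rRNA), 0.0121 (tRNA) and 0.179 (mRNA) with AR420626. These differences kept their direction, but that of all classes together turned between the strains (-0.170 on counts in genes, 0.236 on nuclear protein-coding counts, -0.546 to 0.179 without single libraries) and between days with AR420626 (-2.05, and 0.106 on all pairs). The mRNA difference for treatment at day 2 turned from 0.197 to -0.487 without mice 4 and 5.

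The sign turned for mt-Rnr2 between the strains (0.14 with DESeq2 and with its size factors, 0.82 with total counts, 0.41 with at least 10 counts, 0.30 after thinning) and for mt-Rnr1 between days with AR420626 (-1.06, -0.79 and -1.42 with total counts, at least 10 counts and thinning, -0.022 without the replicate block, -0.28 to 0.27 without single mice, with the lowest without mouse 4, and -0.085 without mice 4 and 5). None of these sign changes passed the test, and the cause was not tested. Many tRNAs, mt-Atp8 and mt-Nd4l stood at under 10 counts in some libraries, which limits the precision of their values.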
